A study of Mus musculus with 130 samples.

Results

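Heme oxygenase 1 (Hmox1) was the ranking gene for a comparison of livers from iron-fed mouse strains. In a panel of inbred strains on 1 iron-rich diet, with 1 male mouse per strain, the 20 strains with the highest transcript level of Hmox1 were set against the 20 with the lowest, and 73 strains lay between. The strains were chosen by the measured level of Hmox1 itself. The ranking used transcripts per 1000000 (TPM) as the authors deposited them, and 2 of the 115 panel libraries were left out by the rule, namely the second mouse of 129X1/SvJ and the library labelled BXD65/RwwJ. The 40 selected libraries are 40 of 130 in the series. The difference in Hmox1 is therefore described without a test, and the results concern the other genes.

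All panel mice ate chow for 4 weeks and then a diet with 2% carbonyl iron (20000 ppm) for 6 weeks. RNA was taken from the large lobe of each liver. The series also holds 15 C57BL/6J males in 5 diet groups of 3 mice each: chow, 50 ppm iron, 500 ppm iron, 2% carbonyl iron, and 2% carbonyl iron with cellulose as the fibre. The labels name no age, batch or time of day. The panel combines classical inbred strains with recombinant inbred families, in which each strain is a fixed mosaic of a pair of parents: C57BL/6J with DBA/2J in BXD, with A/J in AXB and BXA, and with C3H/HeJ in BXH, and BALB/cByJ with a C57BL/6 substrain in CXB. Strains of 1 family therefore share alleles, and with 1 mouse per strain the effect of a genome and that of the single mouse cannot be told apart.

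The high group held 11 BXD strains, 1 BXH strain and 8 other inbred strains. The BXD members were BXD24/TyJ-Cep290<rd16>/J (a BXD24 substrain whose name carries the rd16 allele of Cep290), BXD87/RwwJ, BXD42/TyJ, BXD74/RwwJ, BXD32/TyJ, BXD21/TyJ, BXD55/RwwJ, BXD61/RwwJ, BXD8/TyJ, BXD60/RwwJ and BXD63/RwwJ. The others were BXH2/TyJ, BTBR T<+> tf/J (whose name carries alleles of T and tf), NOD/ShiLtJ, NZW/LacJ, LG/J, NZB/BlNJ, C58/J, LP/J and I/LnJ. The low group held 8 BXD strains, 4 AXB/BXA strains, 2 CXB strains and 6 other inbred strains. They were BXD38/TyJ, BXD28/TyJ, BXD39/TyJ, BXD70/RwwJ, BXD18/TyJ, BXD31/TyJ, BXD44/RwwJ, BXD34/TyJ, AXB19b/PgnJ, AXB13/PgnJ, BXA8/PgnJ, BXA26/PgnJ, CXB12/HiAJ, CXB7/ByJ, CBA/J, BALB/cJ, DBA/2J, CE/J, C57BLKS/J and BALB/cByJ. None of the 20 AXB/BXA strains was in the high group, while the BXD family put 20.0% of its 55 strains in the high group and 14.5% in the low one.

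Heme oxygenase 1 opens the heme ring and releases ferrous iron, carbon monoxide and biliverdin, which biliverdin reductase turns into bilirubin. Its gene is held down by the heme-sensing repressor BACH1 and is driven by NRF2 at shared antioxidant response elements when heme, oxidants or electrophiles accumulate. In the liver, Kupffer cells use the enzyme to recycle iron from engulfed red cells, and hepatocytes raise it under oxidative stress.

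Hmox1 (ENSMUSG00000005413) lies on the forward strand of chromosome 8 at 75093621 to 75100589 of GRCm38. Its level ran from 63.7 to 157 TPM with a median of 83.5 TPM in the high strains, from 23.5 to 62.8 TPM with a median of 40.1 TPM in the 73 strains between, and from 9.91 to 23.4 TPM with a median of 17.8 TPM in the low strains. The groups cannot overlap, since this value made them. BTBR T<+> tf/J (157 TPM), NOD/ShiLtJ (139.9 TPM) and BXD24/TyJ-Cep290<rd16>/J (136 TPM) were the highest, and BXD34/TyJ (9.91 TPM) and BALB/cByJ (9.93 TPM) the lowest. The edges of the groups were narrow: BXD63/RwwJ at rank 20 had 63.7 TPM and SJL/J at rank 21 had 62.8 TPM, while AXB10/PgnJ at rank 93 had 23.5 TPM and BXD38/TyJ at rank 94 had 23.4 TPM. The counts behind these values were 790 to 2490 per library in the high group and 138 to 368 in the low group. Among the 4 BXH strains, BXH2/TyJ was at 107 TPM, and BXH8/TyJ, BXH14/TyJ and BXH10/TyJ were at 23.6, 25 and 33.3 TPM. In 129X1/SvJ, which had 2 mice, Hmox1 was at 58.2 TPM in the ranked mouse and at 29.8 TPM in the mouse left out.

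Diet moved the same gene within 1 genotype. In the C57BL/6J mice, Hmox1 was at 7.18, 6.74 and 9.76 TPM on chow, at 4.37, 7.12 and 10.3 TPM on 50 ppm iron, and at 5.39, 31 and 6.49 TPM on 500 ppm iron. It was at 44, 34 and 37.7 TPM on 2% iron and at 57, 43.4 and 65.0 TPM on 2% iron with cellulose. Both 2% groups lay above every mouse on chow, 50 ppm or 500 ppm, and 1 mouse on 500 ppm stood apart from its group mates. The difference between 2% iron and 50 ppm was 2.36 on the log2 scale (SE 0.52, adjusted p 0.00842, edgeR), and these mice had no part in the ranking. The C57BL/6J mouse of the panel had 40.3 TPM, at rank 56. The 2 sets of mice were processed into separate tables, and levels across them were not tested.

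**Figure D1:**
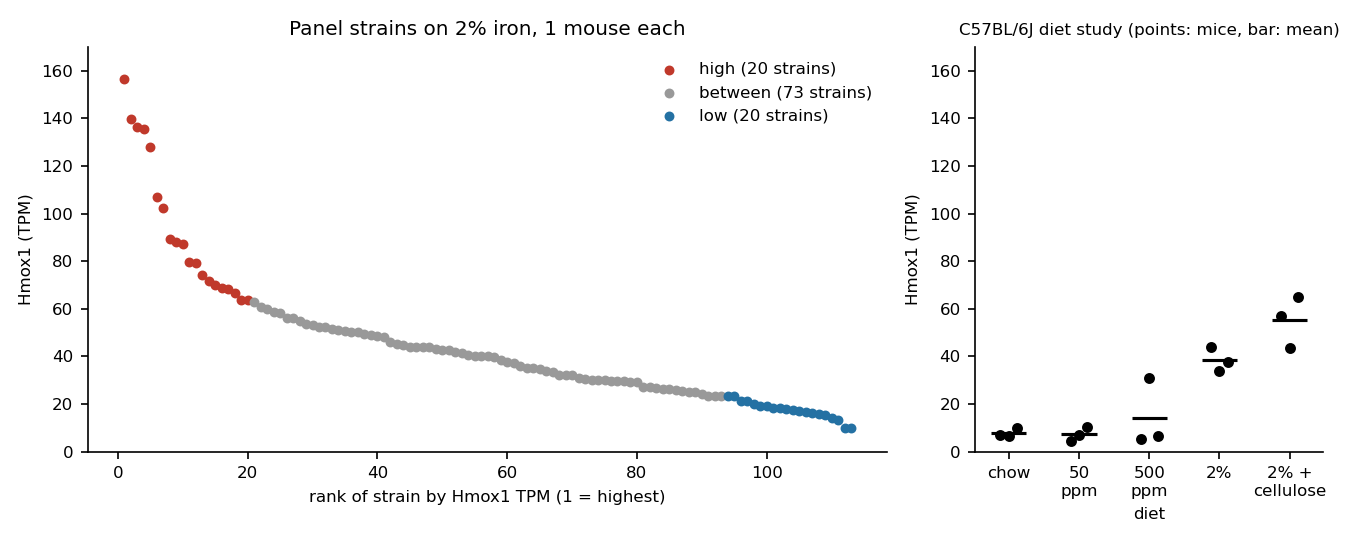
Hmox1 in TPM for each ranked panel strain against rank (left, 1 mouse per strain) and for the 15 C57BL/6J mice by diet (right, points are mice, bars are means). The 20 high strains sit at 63.7 TPM or above and the 20 low strains at 23.4 TPM or below, and the curve is steepest among the 7 highest strains.

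Depth was similar across the 40 selected libraries, at 10.3 to 15.4 M counts in the high group and 10.2 to 13.3 M in the low group. M stands for 1000000 counts. The 73 libraries between ran from 9.41 to 20.6 M. On the first principal component of the 40 libraries, which held 28.8% of the variance, 15 high strains lay above every low strain. NZB/BlNJ, BXH2/TyJ and BTBR T<+> tf/J were farthest out among the high strains, and BALB/cJ and BXD38/TyJ were the low strains nearest to them. BALB/cJ had 777 CPM of exocrine pancreas transcripts, while the next highest strain of the panel, SWR/J, had 17 CPM. Albumin (Alb), a defining hepatocyte transcript, was abundant in all 40 libraries at 52460.2 to 139545 CPM in the high strains and 64211 to 113460.0 CPM in the low strains.

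Expression of the other genes is given in counts per 1000000 (CPM) scaled by TMM library factors. Calls rest on edgeR's quasi-likelihood test, two-sided, with Benjamini-Hochberg adjustment over all genes tested and a threshold of 0.05. Of 13134 genes, 6614 were called (50.4%), 3359 higher in the high strains (25.6%) and 3255 lower (24.8%). Of these, 838 differed by more than 2-fold (6.38%), 608 of them higher (4.63%) and 230 lower (1.75%). Since 50.4% of genes were called, counts in the gene groups below are to be read against these shares and against the median log2 difference of all genes, 0.0039. Gene group counts from another fit are to be read against all genes of that fit. The BXD strains alone gave 1882 higher and 1572 lower of 13338, and the strains outside BXD 2756 and 2373 of 13105. Of 13134 genes, fits with the macrophage, erythroid and acute phase level as a covariate gave 2514, 2636 and 2606 higher. They gave 2176, 2573 and 2555 lower. Only 23 genes (0.175%) had every high strain above every low strain, and 3 (0.0228%) the reverse. On log2(TPM + 0.1) with limma the median of all genes stood at 0.11 and the calls split into 3581 higher and 1490 lower, so small negative differences depend on the scale.

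The relation was also measured in strains that were in neither group. Over the 73 strains between the groups, the slope on log2(TPM + 1) of Hmox1 was called for 2574 of 12265 genes (21%), 1440 rising with Hmox1 (11.7%) and 1134 falling (9.25%). Of the 3119 genes higher in the high strains and tested in both, 1297 also rose with Hmox1 here (41.6% of the former, 90.1% of the latter) and 1 fell. Of the 3169 lower genes, 1060 fell here too (33.4% and 93.5%) and 3 rose. In C57BL/6J mice, 2% iron against 50 ppm changed 2127 of 13560 genes (15.7%), 1155 up (8.52%) and 972 down (7.17%), and 1003 without 1 of the 3 mice on 50 ppm. Of the 3323 genes higher in the high strains and tested there, 790 were also higher on 2% iron (23.8% and 69.8%) and 27 lower, and of the 3214 lower genes 669 were lower on 2% iron (20.8% and 72.5%) and 45 higher. With family as a covariate, the slope was called for 1426 genes. Slope and diet counts of the gene groups below are to be read against the shares of all genes given here.

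The rest of the heme breakdown pathway did not follow Hmox1 as a block. Of its 11 other genes, 2 were higher and 4 lower in the high strains (25.6% and 24.8% of all genes), with a median log2 difference of -0.072. The 2 that were higher carry heme rather than break it down. Slc48a1, which moves heme out of the lysosome, ran at 41.6 to 93.3 CPM with a median of 52.6 CPM in the high strains and 26.6 to 53.6 CPM with a median of 42.5 CPM in the low strains. In 8 high strains it exceeded every low strain (log2 difference 0.46, SE 0.089, adjusted p 5.9e-05). Flvcr1, a heme exporter, had 4.04 to 11.1 CPM with a median of 6.67 CPM in the high strains and 2.19 to 9.15 CPM with a median of 4.13 CPM in the low strains. In 3 high strains it exceeded every low strain (log2 difference 0.61, SE 0.14, adjusted p 0.000537). Slc48a1 (slope 0.18, adjusted p 0.0119) and Flvcr1 (slope 0.39, adjusted p 0.00565) also rose with Hmox1 over the strains between.

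The constitutive isoform and the reductases did not pass the test. Hmox2, the second heme oxygenase, ran at 32.6 to 63.5 CPM with a median of 44.3 CPM in the high strains and 31.1 to 60.5 CPM with a median of 40.2 CPM in the low strains, largely overlapping (log2 difference 0.15, SE 0.073, adjusted p 0.0811). That difference was called in other fits, with an adjusted p of 0.0191 without BALB/cJ and 0.00907 with limma on log2(TPM + 0.1), and Hmox2 rose with Hmox1 over the strains between (slope 0.18, adjusted p 0.0435). Blvra, biliverdin reductase A, ran at 6.97 to 12.7 CPM with a median of 9.83 CPM in the high strains and 5.99 to 11.1 CPM with a median of 8.69 CPM in the low strains (log2 difference 0.14, SE 0.076, adjusted p 0.13), and Blvrb, biliverdin reductase B, at 28.6 to 80.3 CPM with a median of 45.3 CPM in the high strains and 29.2 to 71.3 CPM with a median of 46.7 CPM in the low strains (log2 difference 0.062, SE 0.11, adjusted p 0.655). Limma called Blvra at 0.033. With the macrophage level as a covariate Blvrb was called as well, at 0.37 (adjusted p 0.0435), while its difference was slightly negative in 4 other fits. Por, the reductase that feeds electrons to heme oxygenases and cytochromes P450, spread from 232 to 1116 CPM in the high strains and from 315 to 1821 CPM in the low ones (log2 difference -0.072, SE 0.20, adjusted p 0.788).

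Of the genes that carry or conjugate bilirubin, 3 of 4 were lower. Slco1b2, a sinusoidal uptake carrier for bilirubin and bile acids, had 17.7 to 913 CPM with a median of 485 CPM in the high strains and 554 to 1408 CPM with a median of 1049 CPM in the low strains. In 13 high strains it lay below every low strain (log2 difference -1.03, SE 0.23, adjusted p 0.000284). The lowest value, 17.7 CPM, belonged to NZB/BlNJ. Ugt1a1, which conjugates bilirubin, ran at 169.9 to 580.1 CPM with a median of 308 CPM in the high strains and 195 to 931 CPM with a median of 535 CPM in the low strains (log2 difference -0.80, SE 0.19, adjusted p 0.000501). Abcc2, the canalicular pump for conjugates, stood at 447.5 to 1244 CPM with a median of 673 CPM in the high strains and 527.2 to 1099.7 CPM with a median of 931 CPM in the low strains (log2 difference -0.37, SE 0.095, adjusted p 0.0013). Abcg2, an efflux pump that accepts porphyrins, ran at 30.3 to 77.3 CPM with a median of 42.2 CPM in the high strains and 29.7 to 136 CPM with a median of 58 CPM in the low strains (log2 difference -0.45, SE 0.14, adjusted p 0.00725), and Abcc3, an efflux pump facing the blood, did not pass the test (log2 difference -0.23, SE 0.13, adjusted p 0.149). Among these 4 lower genes Slco1b2 alone also followed Hmox1 over the strains between (slope -0.57, adjusted p 0.00024) and alone was lower on 2% iron in C57BL/6J mice (log2 difference -0.84, adjusted p 0.00653). There it was at 625, 719 and 693.04 CPM on 2% iron and 1396, 1039.6 and 1223 CPM on 50 ppm. The calls of Ugt1a1 and Abcc2 were lost with the summed macrophage level as a covariate, at adjusted p 0.185 and 0.28. Within the BXD strains alone those of Ugt1a1 and Abcg2 were lost, at 0.0825 and 0.125, and among the strains outside BXD those of Abcc2 and Abcg2, at 0.391 and 0.0768. With limma on log2(TPM + 0.1) Abcg2 was at 0.104, and in the 10 highest against the 10 lowest strains Abcc2 was at 0.139. Abcc3 was called lower in 30 against 30 strains, at 0.0291.

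Of 6 genes that capture heme and hemoglobin outside cells 3 were higher and none lower, with a median of 0.30. Cd163, the macrophage receptor for haptoglobin-hemoglobin complexes, had 19.1 to 104.1 CPM with a median of 61.9 CPM in the high strains and 11.8 to 66.6 CPM with a median of 25.2 CPM in the low strains. It exceeded every low strain in 9 high strains (log2 difference 1.23, SE 0.20, adjusted p 3.37e-06). Hpx, hemopexin, which binds free heme in plasma, ran at 2825 to 8774 CPM with a median of 5861 CPM in the high strains and 2881 to 7429 CPM with a median of 3579 CPM in the low strains (log2 difference 0.67, SE 0.12, adjusted p 1.93e-05), and Hp, haptoglobin, at 2049 to 6662 CPM with a median of 3856 CPM in the high strains and 1045 to 5410.2 CPM with a median of 2174 CPM in the low strains (log2 difference 0.66, SE 0.16, adjusted p 0.000855). All 3 also rose with Hmox1 over the 73 strains, with slopes of 0.85, 0.70 and 0.92 (adjusted p 0.00275, 0.000177 and 0.000542). On 2% iron in C57BL/6J mice Cd163 (log2 difference 1.36, adjusted p 0.00899) and Hpx (log2 difference 0.80, adjusted p 0.0203) were higher, and Hp was not called (log2 difference 0.11, adjusted p 0.791). Lrp1, the hemopexin receptor (log2 difference -0.094, SE 0.093, adjusted p 0.412), Alb (log2 difference -0.061, SE 0.11, adjusted p 0.659) and Ambp, whose product binds heme (log2 difference -0.080, SE 0.073, adjusted p 0.375), did not pass. Lrp1 was called lower with the macrophage level as a covariate, at -0.43 (adjusted p 0.01), and Ambp with the acute phase level, at -0.21 (adjusted p 0.00578). Hp and Hpx are also acute phase genes. Within the BXD strains alone the calls of Hpx and Hp were lost, at adjusted p 0.0905 and 0.361. The call of Cd163 was lost with the macrophage level as a covariate, at 0.354, a level to which Cd163 itself contributes.

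The transcripts of the regulators of Hmox1 moved in both directions. Of 9 genes 4 were higher and 4 lower, with a median of -0.12. Keap1, the adaptor that targets NRF2 for degradation, had 43.6 to 87.3 CPM with a median of 68.0 CPM in the high strains and 38 to 58.4 CPM with a median of 49.6 CPM in the low strains. It exceeded every low strain in 15 of 20 high strains (log2 difference 0.46, SE 0.069, adjusted p 1.09e-06). Sqstm1, the selective autophagy receptor p62 that sequesters KEAP1, ran at 229.9 to 881 CPM with a median of 319 CPM in the high strains and 228 to 359 CPM with a median of 273 CPM in the low strains (log2 difference 0.47, SE 0.12, adjusted p 0.000978), with the top value in BXH2/TyJ. In BXD alone its difference was 0.11 and its call was lost, at adjusted p 0.372, as it was with the erythroid level as a covariate, at 0.0565. Among the small MAF partners, Maff was higher (log2 difference 0.86, SE 0.22, adjusted p 0.00155), Mafk was barely past the threshold (log2 difference 0.25, SE 0.11, adjusted p 0.049) and Mafg was lower (log2 difference -0.34, SE 0.068, adjusted p 9.51e-05). Mafg ran at 55.2 to 91.4 CPM with a median of 74.1 CPM in the high strains and 53.5 to 109.9 CPM with a median of 91.1 CPM in the low strains, with 10 low strains above every high strain. Within BXD the call of Maff was lost, at 0.106.

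Bach1, the repressor, ran at 43.7 to 110.1 CPM with a median of 56.4 CPM in the high strains and 50.3 to 84.6 CPM with a median of 71.1 CPM in the low strains (log2 difference -0.25, SE 0.082, adjusted p 0.0106). The medians put it lower in the high strains, yet its highest value in the 40 strains, 110.1 CPM, was in the high strain NZW/LacJ. The call was lost in 7 of 17 other fits, among them the 10 highest against the 10 lowest strains, at adjusted p 0.332, and 30 against 30, at 0.114. Nfe2l2, which encodes NRF2, did not pass (log2 difference -0.18, SE 0.091, adjusted p 0.0966). It was called lower in 4 other fits, at adjusted p 0.00362 with strains ranked by CPM, 0.0124 in 10 against 10, 0.0402 in 30 against 30 and 0.0329 without BALB/cJ. The related factor Nfe2l1 (log2 difference -0.42, SE 0.10, adjusted p 0.00101) and Cul3, the ubiquitin ligase scaffold of KEAP1 (log2 difference -0.12, SE 0.051, adjusted p 0.0451), were lower. On log2(TPM + 0.1) none of the 4 lower genes was called, with adjusted p-values of 0.234 for Bach1, 0.219 for Mafg, 0.16 for Nfe2l1 and 0.963 for Cul3. Cul3 lost its call in 11 of 17 other fits, Nfe2l1 also within BXD, at 0.0532, and Mafg also with the macrophage level as a covariate, at 0.0511. The call of Mafk was lost in 11 of 17 other fits, with RLE library factors among them, at 0.0502, and its difference changed sign within BXD. Of the 9 genes, Keap1 (slope 0.26, adjusted p 0.0138) and Mafk (slope 0.21, adjusted p 0.0321) rose with Hmox1 over the strains between.

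Heme synthesis genes were lower where they differed. Of 11 tested, none was higher and 6 were lower, with a median of -0.32. Slc25a38, the mitochondrial glycine importer that supplies the first step, had 6.74 to 13.3 CPM with a median of 10.6 CPM in the high strains and 11.8 to 18.4 CPM with a median of 14.9 CPM in the low strains. It was below every low strain in 15 high strains (log2 difference -0.54, SE 0.066, adjusted p 2.18e-08). Urod, uroporphyrinogen decarboxylase, ran at 24.3 to 49.2 CPM with a median of 38.8 CPM in the high strains and 42 to 57.3 CPM with a median of 49.5 CPM in the low strains (log2 difference -0.41, SE 0.061, adjusted p 9.01e-07), and 17 high strains lay below every low strain. Uros, uroporphyrinogen III synthase, was lower as well (log2 difference -0.57, SE 0.14, adjusted p 0.00101), and so was Fech, ferrochelatase, which inserts the iron (log2 difference -0.23, SE 0.048, adjusted p 0.000158). Urod (slope -0.19, adjusted p 0.00138) and Fech (slope -0.23, adjusted p 0.000502) were the 2 genes of the list that also fell with Hmox1 over the strains between. The calls of Urod and Fech were lost with limma on log2(TPM + 0.1), at 0.0761 and 0.191, which left 3 of 11 lower. The BXD strains alone gave 2 of 11 lower, and the calls of Uros and Fech were lost, at 0.0987 and 0.0852. Without the filter on low counts, and also with DESeq2, 12 genes of the list were tested, with 1 higher and 6 lower.

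**Figure D2:**
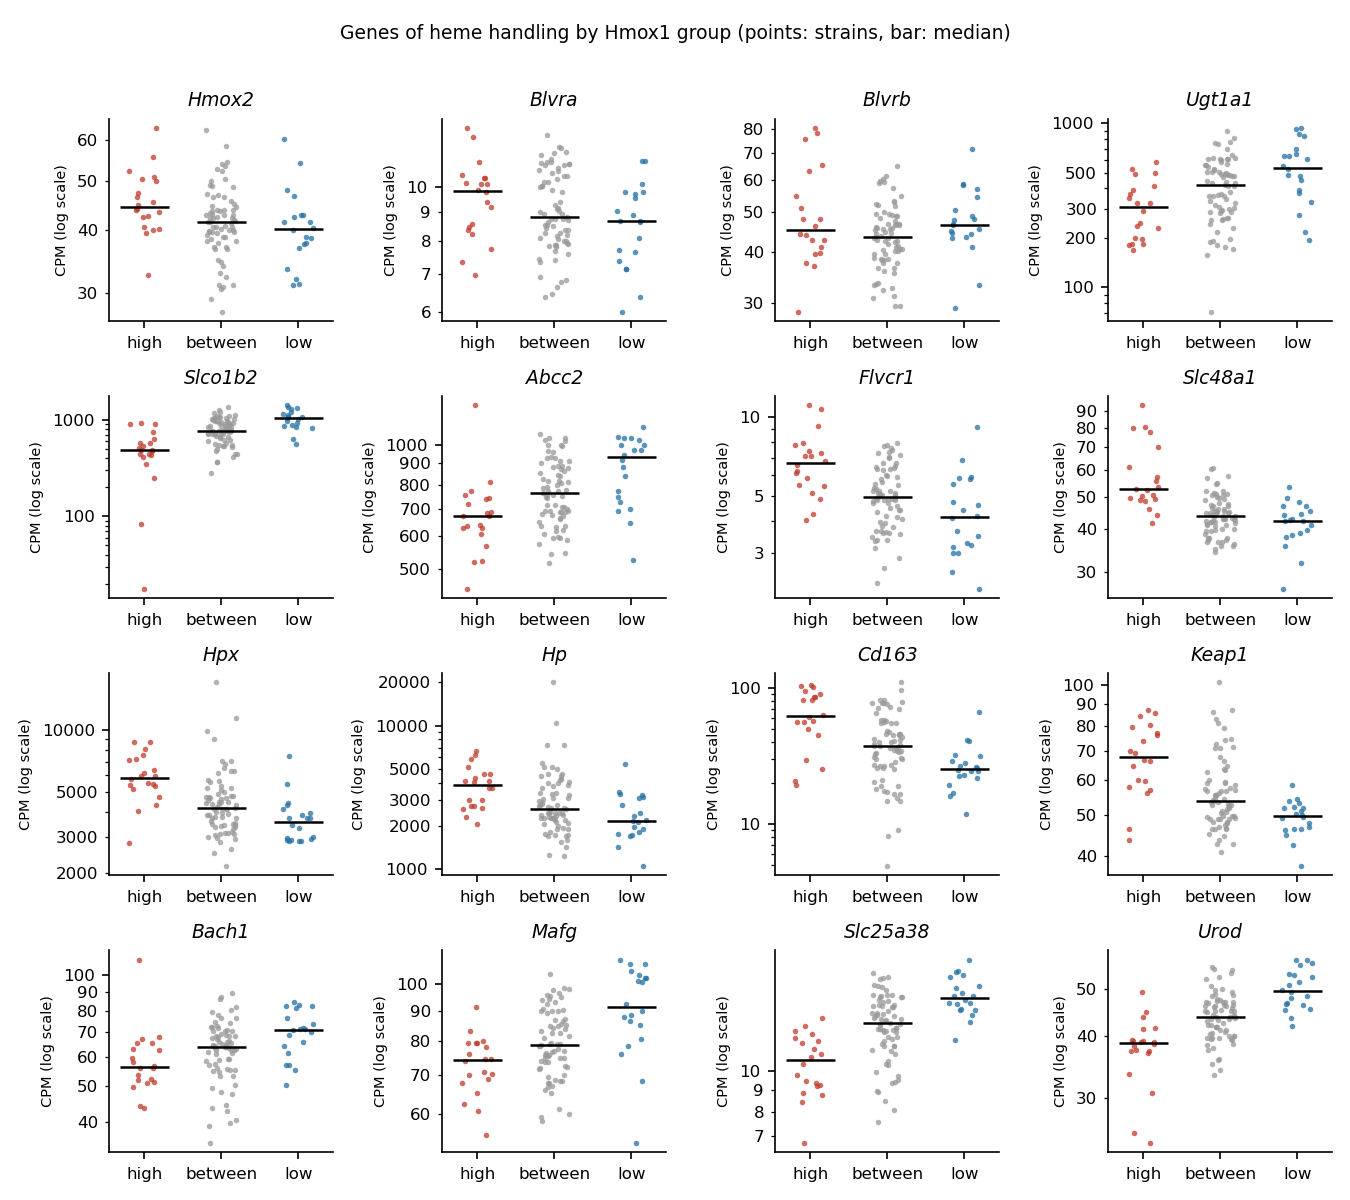
Level of 16 genes of heme handling in CPM (log axis) in the 20 high, 73 between and 20 low strains, with each strain a point and the group median a bar. The groups overlap in all 16, and the fewest high strains reach the range of the low ones in Urod, where 17 lie below every low strain.

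Of 29 antioxidant genes driven by NRF2 that were tested, 15 were higher and 2 lower, with a median of 0.40. G6pdx, glucose 6-phosphate dehydrogenase, a source of NADPH, had 10.4 to 19.9 CPM with a median of 15.1 CPM in the high strains and 5.38 to 12.7 CPM with a median of 6.79 CPM in the low strains. It exceeded every low strain in 14 high strains (log2 difference 1.02, SE 0.096, adjusted p 1.14e-10). Akr1b8, an aldo-keto reductase, ran at 14.2 to 43.9 CPM with a median of 23.5 CPM in the high strains and 3.22 to 18.3 CPM with a median of 9.16 CPM in the low strains (log2 difference 1.42, SE 0.15, adjusted p 1.46e-09), with 17 high strains above every low strain. Gsr, glutathione reductase, was higher too (log2 difference 0.47, SE 0.097, adjusted p 0.000131), while Gstm6, a glutathione transferase, was lower (log2 difference -0.75, SE 0.15, adjusted p 9.8e-05). Glutathione transferase genes have close paralogs, so values of single members are uncertain. In the 73 strains 4 of 29 rose with Hmox1 and 1 fell (11.7% and 9.25% of all genes). On 2% iron in C57BL/6J mice 8 of 30 were higher and 1 lower (8.52% and 7.17% of all genes). Within the BXD strains alone, 5 of 29 were higher and 2 lower in the high strains, and with the erythroid level as a covariate 9 were higher and 2 lower.

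Promoter sequence was available from RefSeq (GRCm38.p6) for 27 of the 30 list genes. The core of the antioxidant response element, TGACNNNGC, searched on both strands in the 250 bases before the start, occurred in 6 of these 27 promoters and in 11.5% of 27025 genes with a promoter in the table. Of the 14 higher genes with a promoter, 3 held it, and these 3 are shown as the higher genes that hold the letters of the element BACH1 and NRF2 share. Each line is a 60-base stretch upstream of the start, 5′ to 3′ on the strand of the gene, with the match in capitals.
G6pdx: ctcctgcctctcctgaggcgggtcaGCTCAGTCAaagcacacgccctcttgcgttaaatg
Txnrd1: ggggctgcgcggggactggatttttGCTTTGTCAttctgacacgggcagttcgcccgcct
Htatip2: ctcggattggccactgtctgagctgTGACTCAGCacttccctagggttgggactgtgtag
The stretches lie at chrX:74428903-74428962 on the reverse strand, chr10:82859089-82859148 on the forward strand and chr7:49759438-49759497 on the forward strand. In G6pdx and Txnrd1 the core reads on the opposite strand. Txnrd1, thioredoxin reductase 1, ran at 101 to 253 CPM with a median of 133 CPM in the high strains and 101 to 155 CPM with a median of 119 CPM in the low strains (log2 difference 0.23, SE 0.093, adjusted p 0.0336), and its call was lost in 7 of 17 other fits, among them with family as a covariate, at 0.108, and within BXD, at 0.7. Htatip2, an oxidoreductase, ran at 19.2 to 64.3 CPM with a median of 30.9 CPM in the high strains and 13.4 to 49.9 CPM with a median of 22.5 CPM in the low strains (log2 difference 0.49, SE 0.15, adjusted p 0.0051), also lost within BXD, at 0.226. These 2 were chosen for display after their values were seen. A match is a description of letters, not a binding site.

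Among genes of iron storage and transport, 11 of 22 were higher and 2 lower, with a median of 0.29. Within the BXD strains alone 6 of 22 were higher and 3 lower. Slc11a2, the divalent metal transporter DMT1, had 16.2 to 61.5 CPM with a median of 37.5 CPM in the high strains and 10.3 to 21.8 CPM with a median of 14 CPM in the low strains. It exceeded every low strain in 18 high strains (log2 difference 1.31, SE 0.13, adjusted p 5.51e-10). Trf, transferrin, the plasma iron carrier, had 18978 to 54105 CPM with a median of 28108 CPM in the high strains and 9683 to 20155 CPM with a median of 13212 CPM in the low strains (log2 difference 1.01, SE 0.12, adjusted p 6.23e-09), with 19 high strains above every low strain. Slc11a1, the phagosomal metal transporter of macrophages, ran at 9.29 to 24.5 CPM with a median of 17 CPM in the high strains and 4.74 to 15.4 CPM with a median of 8.77 CPM in the low strains (log2 difference 0.94, SE 0.12, adjusted p 5.46e-08). Ireb2, the iron-sensing RNA-binding protein IRP2, was lower (log2 difference -0.51, SE 0.070, adjusted p 2.42e-07), with 17 low strains above every high strain. All 4 followed Hmox1 in the same direction over the strains between, with slopes of 0.63, 0.69, 0.65 and -0.23 (adjusted p 0.00378, 0.000181, 0.000138 and 0.00205). On 2% iron in C57BL/6J mice Trf (log2 difference 0.69, adjusted p 0.00725) and Slc11a1 (log2 difference 1.42, adjusted p 0.00308) were higher, and Slc11a2 was at 27.8, 22.6 and 18 CPM against 28.8, 24.8 and 27.9 CPM on 50 ppm, not called (log2 difference -0.25, adjusted p 0.257). The call of Slc11a1 was lost with the macrophage level as a covariate, at 0.088.

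The BMP/SMAD pathway sets hepcidin by iron load. Of its 15 genes 3 were higher and 1 lower in the high strains (25.6% and 24.8% of all genes). Over the strains between 0 rose and 1 fell with Hmox1 (11.7% and 9.25% of all genes), and 9 were higher and 1 lower on 2% iron in C57BL/6J mice (8.52% and 7.17%). Bmp6, the endothelial ligand induced by iron, had 15.8 to 44.9 CPM with a median of 27.6 CPM in the high strains and 7.33 to 25.3 CPM with a median of 16.9 CPM in the low strains (log2 difference 0.73, SE 0.14, adjusted p 7.98e-05). It lay at 25, 30.1 and 31.4 CPM on 2% iron and 4.07, 7.63 and 5.71 CPM on 50 ppm (log2 difference 2.31, adjusted p 0.000127). Smad6, an inhibitory SMAD (log2 difference 0.31, SE 0.11, adjusted p 0.0132), and Bambi, a decoy receptor (log2 difference 0.30, SE 0.12, adjusted p 0.0297), were slightly higher. Tmprss6, the protease that cleaves hemojuvelin, was lower (log2 difference -0.33, SE 0.10, adjusted p 0.0081). With the macrophage level as a covariate Bmp6 was no longer called, at 0.224, nor was Smad6, at 0.256, and the list held 0 higher and 1 lower. Smad6 lost its call in 5 of 17 other fits, within BXD among them, at 0.434. Bambi lost its call in 11 of 17 other fits, with family as a covariate among them, at 0.258, and Tmprss6 in 5, limma on log2(TPM + 0.1) among them, at 0.125.

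Most markers of macrophages were higher. Of 20 Kupffer cell and macrophage genes, 17 were higher and none lower, with a median of 0.79, 16 of 20 rose with Hmox1 over the strains between, and 20 of 20 were higher on 2% iron in C57BL/6J mice. The list summed to 897 to 2291 CPM with a median of 1716 CPM in the high strains and 737 to 1517 CPM with a median of 1059.6 CPM in the low strains, and 16 high strains exceeded every low strain. Marco, a scavenger receptor, had 7.41 to 178 CPM with a median of 61.8 CPM in the high strains and 1.49 to 35.8 CPM with a median of 8.65 CPM in the low strains (log2 difference 2.71, SE 0.36, adjusted p 1.05e-07). Itgam, the CD11b integrin of monocytes and neutrophils, had 2.67 to 16.9 CPM with a median of 6.68 CPM in the high strains and 0.780 to 4.17 CPM with a median of 1.55 CPM in the low strains (log2 difference 1.97, SE 0.22, adjusted p 4.44e-09). Spic, the factor of heme-recycling macrophages, ran at 2.33 to 9.65 CPM with a median of 5.15 CPM in the high strains and 1.27 to 4.08 CPM with a median of 2.50 CPM in the low strains (log2 difference 1.08, SE 0.14, adjusted p 8.18e-08), and C1qc, a complement C1q chain made by macrophages, at 43.2 to 105 CPM with a median of 70.0 CPM in the high strains and 21.3 to 66.5 CPM with a median of 37.8 CPM in the low strains (log2 difference 0.84, SE 0.11, adjusted p 1.5e-07). For Marco 17 and for Spic 16 of 20 high strains exceeded every low strain. In whole liver RNA, more macrophages and more RNA per macrophage cannot be told apart. BXH2/TyJ was an exception among the high strains, with the lowest sum of the list in that group, 897 CPM.

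Entered as a covariate, the summed Kupffer cell and macrophage level left 4690 of 13134 genes called between the groups, and the list itself at 3 higher and 3 lower, with the call of C1qc lost, at 0.173. Genes of heme synthesis were then 4 lower of 11, heme scavenging 2 higher and 1 lower of 6, NRF2 targets 15 higher and 1 lower of 29, and cytochromes P450 8 lower of 21. Of 15 genes of lipid-associated and infiltrating macrophages, 8 were higher and none lower without the covariate and 5 were higher with it, and among strains outside BXD 4 were higher and 1 lower. Lgals3, galectin 3 (log2 difference 1.29, SE 0.18, adjusted p 1.86e-07), the tetraspanins Cd9 (log2 difference 1.23, SE 0.19, adjusted p 1.7e-06) and Cd63 (log2 difference 1.68, SE 0.26, adjusted p 2.15e-06), and the monocyte antigen Ly6c2 (log2 difference 1.39, SE 0.27, adjusted p 6.2e-05) had the smallest p-values among them. The highest sum of this list in any of the 40 libraries, 724 CPM, was in the low strain BALB/cJ.

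Genes of neutrophils and red cells were also among the higher ones. The 11 neutrophil genes summed to 8.68 to 179 CPM with a median of 68.1 CPM in the high strains and 2.0 to 13.1 CPM with a median of 4.19 CPM in the low strains. In 18 high strains the sum exceeded every low strain. Only 6 of the 11 passed the filter on low counts, which a gene can pass through the high strains alone, and these 6 were higher. Without the filter 11 of 11 were higher. Of 7 erythroid genes tested 5 were higher and none lower, 8 of 10 were higher without the filter, and the list summed to 9.39 to 2701 CPM with a median of 935 CPM in the high strains and 12.3 to 752 CPM with a median of 85.4 CPM in the low strains. The erythroid ranges overlapped: 8 high strains did not exceed the highest low strain, AXB19b/PgnJ, and the lowest sum of all, 9.39 CPM, was in the high strain BXD87/RwwJ. Hba-a2 (log2 difference 3.28, SE 0.66, adjusted p 8.14e-05), Hbb-bs (log2 difference 3.02, SE 0.65, adjusted p 0.000195) and Hbb-bt (log2 difference 3.01, SE 0.65, adjusted p 0.000217), which encode globin chains and have near-identical copies that can share reads, were higher. None of the 3 was called with the erythroid level, which holds them, as a covariate. In that fit 5209 genes were called between the groups. Whether the blood content of the liver pieces has a part in the other differences was not tested beyond these fits.

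Lists of 5 other cell types were read in the same way. Of 4 lymphocyte genes tested, Jchain, the joining chain of secreted immunoglobulin, was higher (log2 difference 1.21, SE 0.35, adjusted p 0.00386) and Cd3d, Cd4 and Cd79b were not called. Of 10 endothelial genes 7 were higher and none lower, among them Cdh5, VE-cadherin (log2 difference 0.89, SE 0.13, adjusted p 9.73e-07), Stab2 (log2 difference 0.81, SE 0.23, adjusted p 0.00389) and Stab1 (log2 difference 0.43, SE 0.12, adjusted p 0.00372), the scavenger receptors of sinusoidal endothelium, and Oit3 (log2 difference 0.53, SE 0.14, adjusted p 0.0016). Of 6 cholangiocyte genes 1, the duct factor Sox9, was higher (log2 difference 0.86, SE 0.22, adjusted p 0.00142). Of 12 exocrine pancreas genes only Cela1 was tested, and it was lower (log2 difference -0.47, SE 0.17, adjusted p 0.0178). Of 12 hepatocyte genes none was higher and 7 were lower, with a median of -0.34. With the macrophage level as a covariate the calls of Cdh5, Stab1, Stab2 and Oit3 were lost, at 0.0918, 0.541, 0.12 and 0.367, and that of Jchain, at 0.217. Among BXD strains 3 of 10 endothelial genes were higher, and Stab2, Oit3, Sox9, Jchain and Cela1 lost their calls, at 0.148, 0.105, 0.345, 0.0513 and 0.109. The difference of Sox9 was 0.36 there. Cela1 lost its call in 5 of 17 other fits in all, Stab1 in 4, and Jchain in 3 of the 14 that tested it. In the 10 highest against the 10 lowest strains 4 of 12 hepatocyte genes were lower.

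**Figure D3:**
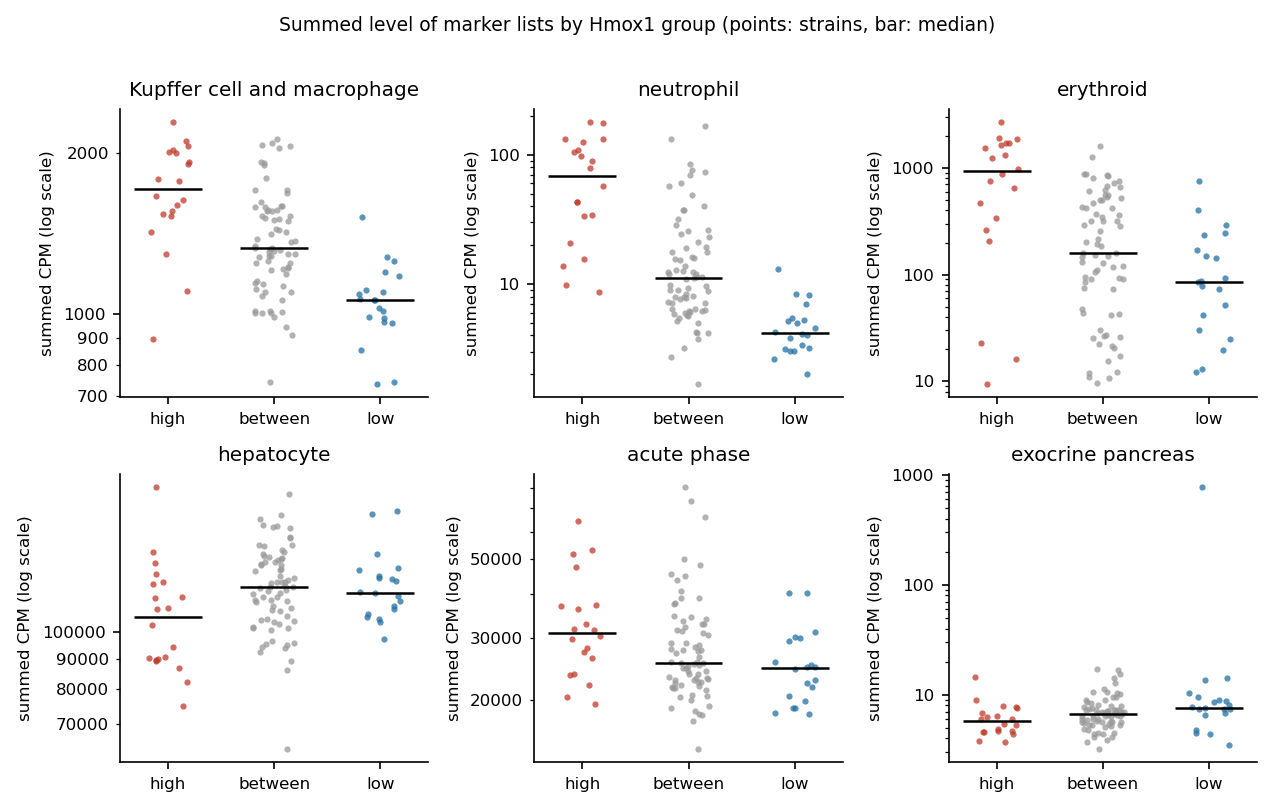
Summed CPM (log axis) of 6 marker lists in the 20 high, 73 between and 20 low strains, with each strain a point and the group median a bar. The neutrophil sums of 18 high strains lie above every low strain, against 16 for the macrophage and 12 for the erythroid sums, and BALB/cJ stands alone among the low strains for exocrine pancreas transcripts.

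Genes of the ATF4 stress response were higher where they differed. Of 16 genes 12 were higher and none lower, with a median of 0.73. Gdf15, a circulating stress cytokine, had 1.59 to 39.7 CPM with a median of 8.95 CPM in the high strains and 0.638 to 7.79 CPM with a median of 2.47 CPM in the low strains (log2 difference 2.07, SE 0.31, adjusted p 1.09e-06). Atf3, an immediate stress-induced factor, ran at 0.808 to 23.7 CPM with a median of 3.56 CPM in the high strains and 0.350 to 3.01 CPM with a median of 1.07 CPM in the low strains (log2 difference 2.02, SE 0.31, adjusted p 1.44e-06), and Mthfd2, a mitochondrial folate enzyme, at 0.716 to 22.1 CPM with a median of 3.36 CPM in the high strains and 0.253 to 2.11 CPM with a median of 0.786 CPM in the low strains (log2 difference 2.06, SE 0.34, adjusted p 5.17e-06). Ddit4, the mTORC1 inhibitor REDD1, spread from 3.84 to 217.4 CPM in the high strains and from 2.19 to 93.0 CPM in the low ones (log2 difference 2.32, SE 0.49, adjusted p 0.000164). Among the BXD strains alone the list gave 3 higher and 1 lower of 16, and without NZB/BlNJ, BXH2/TyJ and BTBR T<+> tf/J 8 higher and none lower. With the erythroid and the acute phase level as covariates 6 and 7 were higher. The call of Ddit4 was lost within BXD, at 0.17. Of the 16 genes 5 rose with Hmox1 over the strains between, and on 2% iron in C57BL/6J mice 2 of 17 were higher.

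The composite C/EBP-ATF element TGATGCAA, searched on both strands in the same 250 bases, occurred in 4 of 16 promoters of the list and in 0.918% of all genes with a promoter. Of the 12 higher genes, 3 held it, and they are shown as the higher genes of this list with the letters of the element. Fgf21 was the member with it that is not shown.
Atf3: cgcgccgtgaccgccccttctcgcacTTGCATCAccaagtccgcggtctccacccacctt
Chac1: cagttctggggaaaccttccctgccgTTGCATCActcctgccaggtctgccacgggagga
Nupr1: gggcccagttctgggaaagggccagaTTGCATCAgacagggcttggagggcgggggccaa
The stretches lie at chr1:191183410-191183469 on the reverse strand, chr2:119351023-119351082 on the forward strand and chr7:126625547-126625606 on the reverse strand. In all 3 the element reads on the opposite strand. Chac1, which degrades glutathione, ran at 1.2 to 10.1 CPM with a median of 4.39 CPM in the high strains and 0.721 to 6.51 CPM with a median of 3.17 CPM in the low strains (log2 difference 0.56, SE 0.22, adjusted p 0.0344). Nupr1, a stress-induced chromatin protein, ran at 0.431 to 29 CPM with a median of 1.73 CPM in the high strains and 0 to 4.50 CPM with a median of 0.818 CPM in the low strains (log2 difference 1.84, SE 0.46, adjusted p 0.000986). Chac1 and Nupr1 were chosen for display after their values were seen. Their calls were lost within the BXD strains, at 0.246 and 0.392, and that of Nupr1 also with the erythroid level as a covariate, at 0.136. Chac1 lost its call in 9 of 17 other fits, with family as a covariate among them, at 0.0706.

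Targets of p53 were higher in 9 of 11 genes and lower in none, with a median of 1.0. Within the BXD strains alone 6 of 11 were higher and none lower. Zmat3, an RNA-binding p53 target, exceeded every low strain in 19 of 20 high strains, at 8.83 to 32.4 CPM with a median of 13.3 CPM in the high strains and 6.91 to 10.5 CPM with a median of 8.69 CPM in the low strains (log2 difference 0.74, SE 0.10, adjusted p 1.82e-07). Bax, a pore former of apoptosis, had 12.7 to 32.4 CPM with a median of 17.9 CPM in the high strains and 7.29 to 14.6 CPM with a median of 12 CPM in the low strains (log2 difference 0.69, SE 0.098, adjusted p 3.62e-07). Btg2, an antiproliferative gene (log2 difference 2.35, SE 0.41, adjusted p 1.17e-05), and Plk2, a stress-induced kinase (log2 difference 1.03, SE 0.17, adjusted p 6.71e-06), were higher with more overlap, since 1 low strain, BXD38/TyJ, had 152 CPM of Btg2. Heat shock genes were higher in none and lower in 5 of 13. Dnaja1, a cytosolic co-chaperone (log2 difference -0.60, SE 0.091, adjusted p 1.15e-06), Hspd1, the mitochondrial chaperonin (log2 difference -0.40, SE 0.063, adjusted p 2.24e-06), Hsph1 (log2 difference -0.63, SE 0.14, adjusted p 0.000468) and Hspe1, the partner of the chaperonin (log2 difference -0.32, SE 0.094, adjusted p 0.00541), led these. Only 1 of 13 was lower within BXD, where 1572 of all 13338 genes were lower. Hspd1, Hsph1 and Hspe1 lost their calls there, at 0.0525, 0.345 and 0.181. Hspe1 lost its call in 5 of 17 other fits in all, and with the macrophage level as a covariate 3 of 13 were lower. Limma at both pseudocounts called 2 heat shock genes higher and 3 lower. In each of 30 against 30, the ranking by CPM, DESeq2, the fit with no filter and that with family as a covariate, 1 was higher.

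Acute phase genes were higher in 9 of 20 and lower in 1, with a median of 0.60, and 14 of 20 rose with Hmox1 over the strains between. Lcn2, lipocalin 2, which binds iron-loaded siderophores, spread over 24 to 1609 CPM with a median of 190.0 CPM in the high strains and 12 to 443 CPM with a median of 36.2 CPM in the low strains (log2 difference 2.59, SE 0.48, adjusted p 3.27e-05). Only 5 high strains exceeded every low strain, and BXD28/TyJ held the highest low value. Lbp, the lipopolysaccharide-binding protein (log2 difference 0.92, SE 0.16, adjusted p 1.14e-05), and Cp, ceruloplasmin, the plasma ferroxidase (log2 difference 0.49, SE 0.11, adjusted p 0.000221), were higher. Within the BXD strains 1 of 20 was higher and 1 lower, and the calls of Lcn2 and Cp were lost, at 0.202 and 0.193. With the macrophage level as a covariate 5 of 20 were higher and 1 lower. With the summed acute phase level as a covariate 5161 genes were called between the groups.

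Genes of hepatocyte metabolism were lower in the high strains where they differed. Of 21 cytochromes P450, none was higher and 15 were lower, with a median of -1.09. Cyp1a2 had 11.6 to 205 CPM with a median of 80.9 CPM in the high strains and 130.4 to 2569 CPM with a median of 259.7 CPM in the low strains, and 14 high strains lay below every low strain (log2 difference -2.33, SE 0.39, adjusted p 5.92e-06). Cyp2e1, the ethanol-inducible enzyme, ran at 535.9 to 4849 CPM with a median of 2983 CPM in the high strains and 3887 to 9395 CPM with a median of 6340.1 CPM in the low strains (log2 difference -1.17, SE 0.19, adjusted p 3.01e-06), with 18 high strains below every low strain. Cyp7a1, the rate-limiting enzyme of bile acid synthesis, had 3.63 to 298 CPM with a median of 37.3 CPM in the high strains and 13.7 to 420.5 CPM with a median of 227 CPM in the low strains (log2 difference -1.66, SE 0.40, adjusted p 0.000779). Cyp2c37 (log2 difference -1.53, SE 0.32, adjusted p 0.000153) and Cyp3a25 (log2 difference -0.59, SE 0.14, adjusted p 0.000667) were lower and have close paralogs. Apoa1, the main protein of high-density lipoprotein (log2 difference -0.50, SE 0.10, adjusted p 9.23e-05), and Ttr, transthyretin (log2 difference -0.43, SE 0.096, adjusted p 0.000348), were lower too. Of the 21 cytochromes 7 were lower within BXD, outside it 9, and with the erythroid and the macrophage level as covariates 7 and 8. Within BXD the calls of Cyp7a1, Cyp2c37 and Cyp3a25 were lost, at 0.156, 0.0861 and 0.435, and the difference of Cyp3a25 was -0.15. Cyp2c37 was also lost with both of these covariates, at 0.0503 and 0.133, and Apoa1 with the macrophage level, at 0.0672, and outside BXD, at 0.0753. Over the strains between 5 of 21 cytochromes fell with Hmox1 and none rose, and on 2% iron in C57BL/6J mice 6 were lower and 3 higher.

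Cholesterol synthesis genes were lower in 20 of 23 and higher in none, with a median of -0.85. Ebp, a sterol isomerase, had 43 to 108 CPM with a median of 85.1 CPM in the high strains and 91.5 to 157 CPM with a median of 131 CPM in the low strains (log2 difference -0.60, SE 0.097, adjusted p 3.86e-06), and 15 low strains lay above every high strain. Pmvk, a kinase of the mevalonate pathway (log2 difference -0.93, SE 0.18, adjusted p 5.53e-05), Tm7sf2, a sterol reductase (log2 difference -0.88, SE 0.18, adjusted p 0.000126), and Sc5d, a sterol desaturase (log2 difference -1.31, SE 0.27, adjusted p 0.000127), were lower. Over the strains between 2 of 23 fell with Hmox1, with a median slope of -0.089. On 2% iron in C57BL/6J mice 2 of 23 were lower, with a median of -0.40. Over all genes 9.25% fell and 7.17% were lower. The diet comparison had 3 mice per group, and a missing call there does not show that a gene was unchanged. Of 12 genes of fatty acid synthesis 5 were lower and none higher, among them Thrsp (log2 difference -1.20, SE 0.30, adjusted p 0.000946), Me1 (log2 difference -0.57, SE 0.17, adjusted p 0.00438), Elovl5 (log2 difference -0.75, SE 0.24, adjusted p 0.00906) and Scd1 (log2 difference -0.82, SE 0.28, adjusted p 0.0147). None of 11 followed Hmox1 over the strains between, and within the BXD strains 0 of the 12 were called, against 8 lower among the strains outside BXD and 9 in the 10 highest against the 10 lowest. On 2% iron in C57BL/6J mice the list went the other way, with 1 of 12 higher, none lower and a median of 0.43. Scd1 lost its call in 4 of 17 other fits, limma on log2(TPM + 0.1) among them, at 0.055, and Me1 in 3, the macrophage level as a covariate among them, at 0.0732.

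Clock genes also differed. Of 16 genes 3 were higher and 9 lower, with a median of -0.53. Hlf (log2 difference -0.84, SE 0.13, adjusted p 1.51e-06) and Tef (log2 difference -0.62, SE 0.11, adjusted p 7.41e-06), which encode output factors of the clock, Per3, a period gene (log2 difference -0.99, SE 0.20, adjusted p 9.97e-05), and Nr1d2, a nuclear receptor of the core loop (log2 difference -0.54, SE 0.12, adjusted p 0.000228), had the smallest p-values. For Tef 17 and for Hlf 16 low strains exceeded every high strain. The labels give no hour of sampling, and its part in these differences was not tested. In the BXD family 0 were higher and 4 lower, and Nr1d2 was not called, at 0.157. With the acute phase level as a covariate 0 were higher and 7 lower. Over the strains between 1 of 16 clock genes fell with Hmox1 and none rose.

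Genes of matrix and of dividing cells were higher where they differed. Of 17 fibrosis and stellate cell genes, 12 were higher and none lower, with a median of 0.61. Loxl2, a collagen cross-linking oxidase, had 7.79 to 21.2 CPM with a median of 10.5 CPM in the high strains and 1.62 to 6.25 CPM with a median of 4.66 CPM in the low strains, without overlap (log2 difference 1.41, SE 0.13, adjusted p 1.14e-10). Col5a2 (log2 difference 1.18, SE 0.15, adjusted p 4.42e-08), Col5a1 (log2 difference 0.66, SE 0.11, adjusted p 8.19e-06) and Sparc, a matrix glycoprotein (log2 difference 0.80, SE 0.11, adjusted p 1.1e-07), were higher, and in 18 high strains Col5a2 exceeded every low strain. Among the strains outside BXD 6 of 17 were higher, and 7 were in the 10 highest against the 10 lowest strains and with the macrophage level as a covariate. In the 73 strains 2 of 17 of these genes rose with Hmox1 (11.7% of all genes did), and on 2% iron in C57BL/6J mice 2 of 18 were higher (8.52% of all genes). Of 16 cell division genes 10 passed the filter on low counts, and 8 were higher and none lower, against 14 of 16 higher without the filter and 5 of 12 within BXD. Mki67, a marker of cycling cells, had 3.14 to 172 CPM with a median of 13.8 CPM in the high strains and 1.14 to 7.05 CPM with a median of 3.36 CPM in the low strains (log2 difference 3.07, SE 0.41, adjusted p 1.35e-07). Ccna2, cyclin A2 (log2 difference 2.28, SE 0.32, adjusted p 2.92e-07), Top2a, topoisomerase 2 alpha (log2 difference 2.03, SE 0.32, adjusted p 2.55e-06), and Tpx2, a spindle factor (log2 difference 2.01, SE 0.35, adjusted p 1.45e-05), were higher, and BTBR T<+> tf/J had the top value of all 4.

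**Figure D4:**
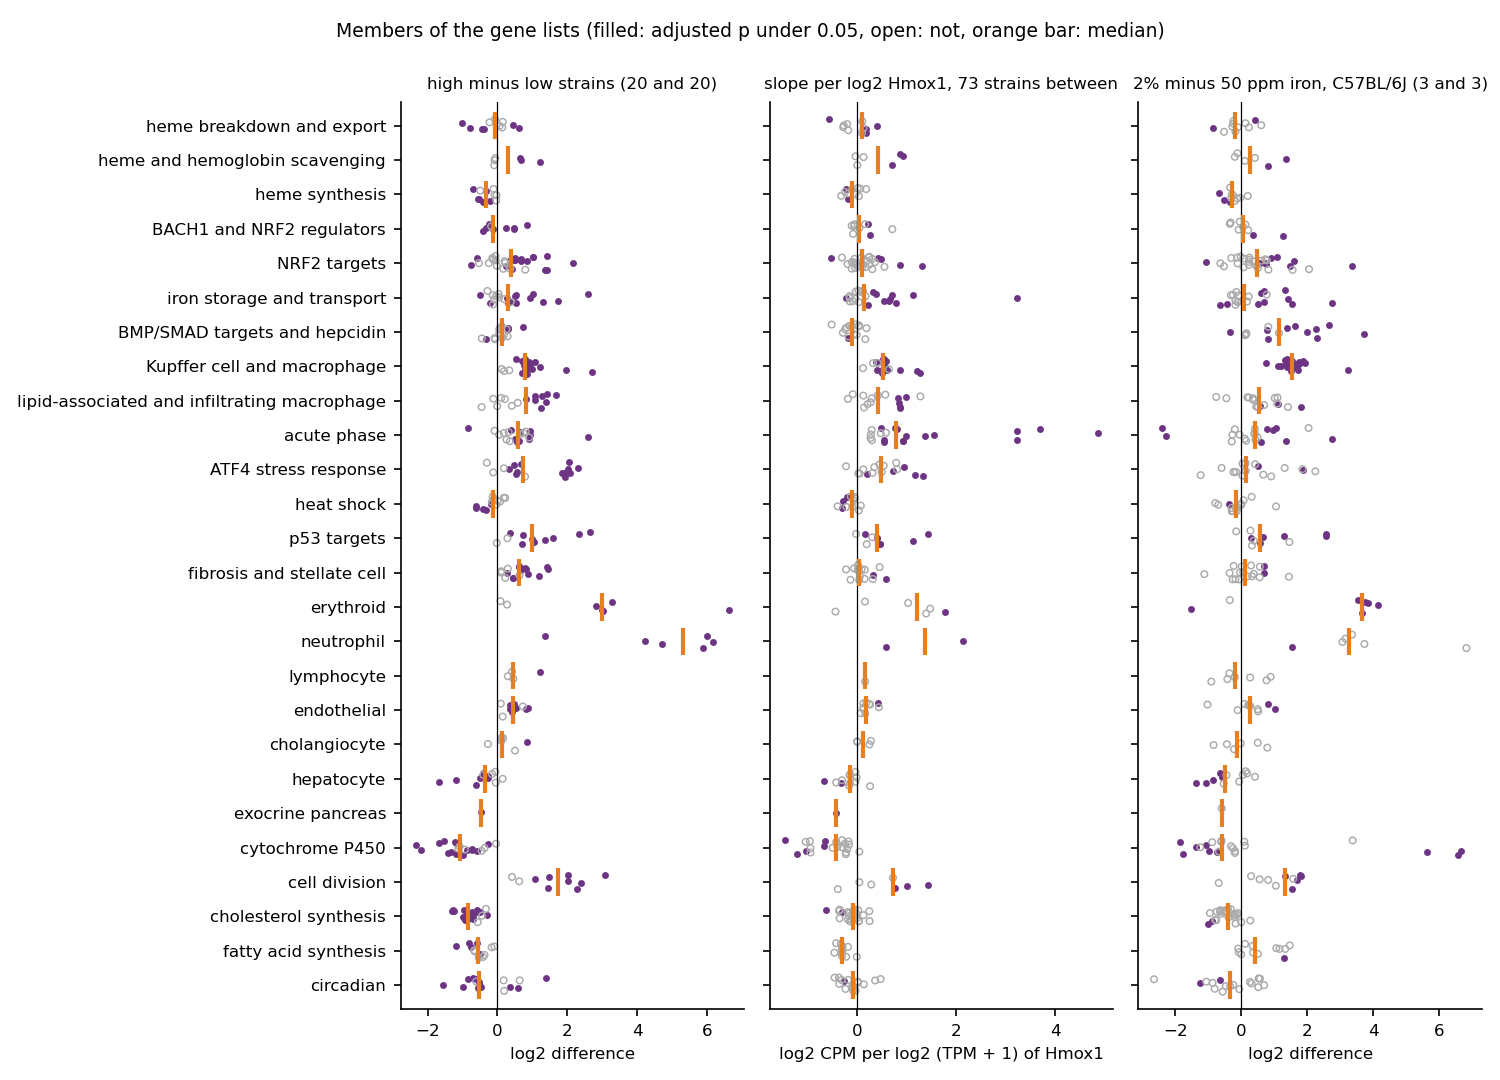
Each tested member of the 26 gene lists as a point, for the high minus low strains (left, log2 difference), the slope on Hmox1 over the 73 strains between (middle) and 2% minus 50 ppm iron in C57BL/6J mice (right, log2 difference), with filled points at an adjusted p under 0.05 and an orange bar at the list median. Genes of the Kupffer cell and macrophage list lie right of 0 in all 3 panels. Cholesterol synthesis genes all lie left of 0 in the first panel only, with list medians of -0.85, -0.089 and -0.40 from left to right.

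The genes with the largest rises that are described here were scarce in the low strains, with medians of at most 1.10 CPM there. Ndufa4l2, a hypoxia-induced mitochondrial protein, ran at 1.69 to 69.5 CPM with a median of 20 CPM in the high strains and 0.346 to 1.92 CPM with a median of 1.08 CPM in the low strains (log2 difference 4.31, SE 0.40, adjusted p 1.02e-10), and Thbs1, thrombospondin 1, at 1.03 to 80.0 CPM with a median of 13.6 CPM in the high strains and 0.262 to 3.77 CPM with a median of 1.10 CPM in the low strains (log2 difference 3.94, SE 0.38, adjusted p 1.4e-10). Ffar4, a fatty acid receptor, ran at 1.46 to 33.4 CPM with a median of 15.1 CPM in the high strains and 0 to 2.78 CPM with a median of 0.181 CPM in the low strains (log2 difference 5.67, SE 0.48, adjusted p 1.38e-11), and Mab21l3 at 0.136 to 30.7 CPM with a median of 6.47 CPM in the high strains and 0 to 0.472 CPM with a median of 0.0800 CPM in the low strains (log2 difference 6.41, SE 0.57, adjusted p 3.58e-11). Of the 12 largest rises 7 were genes of blood cells. They were Slc4a1, the anion exchanger of red cells (6.62), the neutrophil granule genes Ltf (6.18), Mpo (6.0) and Ngp (5.90), the calprotectin chains S100a8 (4.71) and S100a9 (4.22), and Ppbp, a platelet chemokine (4.44), with adjusted p-values from 3.29e-11 for Ltf to 6.73e-09 for Ppbp. Several of these had 0 counts in part of the low strains, so their log2 differences depend on the prior count of the fit. Genes this scarce in the low strains can pass the filter on low counts through the high strains alone. The mean of 1 CPM needed for naming can be reached in the same way. Of the 17 other fits, Ltf was tested in 12, Mpo in 13, and Slc4a1 and Mab21l3 in 15 each.

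Major urinary protein genes made up 9 of the 12 largest falls, with log2 differences from -4.25 for Mup7 to -2.98 for Mup2. In order they were Mup7, Mup17 (-4.18), Mup9 (-3.98), Mup19 (-3.90), Mup15 (-3.68), Mup1 (-3.40), Mup11 (-3.19), Mup18 (-3.16) and Mup2. Mup7 ran at 0 to 111 CPM with a median of 0.743 CPM in the high strains and 0 to 1039 CPM with a median of 13.5 CPM in the low strains (log2 difference -4.25, SE 1.06, adjusted p 0.00108). It lay at 10.9, 10.7 and 15.4 CPM on 2% iron in C57BL/6J mice and at 9968, 895 and 724 CPM on 50 ppm (log2 difference -8.29, adjusted p 0.000489), and 8 of the 9 were lower on 2% iron there, the exception being Mup18 (log2 difference -2.37, adjusted p 0.0951). Both groups of strains held strains at 0, and the near-identical copies of this family share reads, so single members are uncertain. Within the BXD strains none of the 9 was called, with adjusted p-values from 0.0655 for Mup2 to 0.403 for Mup11. Mup1 lost its call in 6 of 17 other fits in all. Sult2a7, a sulfotransferase, ran at 0 to 2.77 CPM with a median of 0.171 CPM in the high strains and 0.102 to 53.1 CPM with a median of 2.86 CPM in the low strains (log2 difference -3.54, SE 0.61, adjusted p 9.31e-06), and A1bg, a plasma glycoprotein, at 0 to 5.13 CPM with a median of 0.553 CPM in the high strains and 0 to 65.7 CPM with a median of 2.69 CPM in the low strains (log2 difference -3.27, SE 0.65, adjusted p 7.84e-05). Dnah17, a dynein heavy chain (log2 difference -2.94, SE 0.70, adjusted p 0.000601), had medians of 1.05 and 1.08 CPM, and its difference rested on BALB/cByJ, which had 152 CPM. Without that strain it was 0.072 (adjusted p 0.779). The call was also lost with DESeq2 (0.072, adjusted p 0.816) and in 5 further fits.

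Over the 73 strains between the groups, the genes most like Hmox1 in rank included several known from myeloid cells. The 10 highest Spearman coefficients ran from 0.615 for Csf2rb2 to 0.670 for Csf2rb, as descriptions without a p since they were picked as the highest. Csf2rb, the common beta chain of the receptors for IL-3, IL-5 and GM-CSF, had a Pearson coefficient of 0.684, and 0.662 without AXB10/PgnJ and BXH8/TyJ, the 2 strains farthest from the median of Hmox1. Its slope was 1.05 (SE 0.13). Ccl6, a macrophage chemokine (rho 0.670), Plaur, the urokinase receptor (rho 0.667), and Abcc1, an efflux pump for glutathione conjugates (rho 0.640), came next. Lgmn, a lysosomal protease (rho 0.634), Ccdc88a (rho 0.627), Cd33, a myeloid lectin (rho 0.622), Alox5ap, the activator of 5-lipoxygenase (rho 0.621), and Rcsd1 (rho 0.615) completed the 10. The 9 tested for a slope all rose with Hmox1, which their choice by rank in the same 73 strains made near certain. No p is therefore given for these slopes, and Plaur fell below the count filter of that fit.

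The leading genes of these 10 also differed between the ranked groups. Csf2rb had 21.5 to 88.6 CPM with a median of 34.9 CPM in the high strains and 8.01 to 22 CPM with a median of 12.6 CPM in the low strains (log2 difference 1.61, SE 0.14, adjusted p 2.88e-11), and 19 high strains exceeded every low strain. Its neighbour and close paralog Csf2rb2, which can share reads with it, ran at 9.40 to 73.2 CPM with a median of 19.4 CPM in the high strains and 2.54 to 9.35 CPM with a median of 5.70 CPM in the low strains, without overlap (log2 difference 1.91, SE 0.20, adjusted p 1.39e-09). Ccl6 ran at 17.7 to 101 CPM with a median of 52 CPM in the high strains and 3.56 to 25.1 CPM with a median of 12.6 CPM in the low strains (log2 difference 1.95, SE 0.20, adjusted p 9.64e-10), and Plaur at 1.03 to 9.28 CPM with a median of 2.38 CPM in the high strains and 0.0945 to 1.49 CPM with a median of 0.664 CPM in the low strains (log2 difference 2.22, SE 0.27, adjusted p 1.61e-08). On 2% iron in C57BL/6J mice Ccl6 lay at 32.6, 24.6 and 23.4 CPM, and at 3.20, 5.21 and 5.05 CPM on 50 ppm (log2 difference 2.58, adjusted p 0.00105).

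The genes without overlap between the groups were 26 of 13134, chosen after their values were seen. Of the 23, 19 were tested over the strains between and all 19 rose with Hmox1 there (11.7% of all genes did). On 2% iron in C57BL/6J mice 18 of the 23 were higher (8.52% of all genes). The 23 with every high strain above every low strain (0.175%) included enzymes of glucose breakdown. Pkm, pyruvate kinase M, had 47.8 to 127 CPM with a median of 70.3 CPM in the high strains and 11.7 to 29 CPM with a median of 19.6 CPM in the low strains, and its call had the smallest adjusted p of those named here (log2 difference 1.91, SE 0.12, adjusted p 1.24e-15). Hk1, hexokinase 1, ran at 7.18 to 45.3 CPM with a median of 10.4 CPM in the high strains and 2.67 to 6.65 CPM with a median of 3.88 CPM in the low strains (log2 difference 1.72, SE 0.18, adjusted p 1.52e-09), and Pfkl, liver phosphofructokinase, at 57 to 148 CPM with a median of 93.3 CPM in the high strains and 29.6 to 50.9 CPM with a median of 41 CPM in the low strains (log2 difference 1.26, SE 0.095, adjusted p 1.22e-12). Pkm (slope 0.79, adjusted p 6.58e-06), Hk1 (slope 0.72, adjusted p 9.51e-05) and Pfkl (slope 0.74, adjusted p 0.00104) also rose with Hmox1 over the strains between, and all 3 were higher on 2% iron in C57BL/6J mice, by 2.3, 1.12 and 1.35 on the log2 scale (adjusted p 0.000369, 0.017 and 0.000892). Pkm was at 71.7, 58 and 57.5 CPM there and at 11.3, 11.6 and 15 CPM on 50 ppm.

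Vessel and platelet genes were also among the 23: Vwf, von Willebrand factor (log2 difference 1.71, SE 0.20, adjusted p 9.55e-09), Podxl, podocalyxin (log2 difference 1.70, SE 0.16, adjusted p 1.38e-10), F2r, the thrombin receptor (log2 difference 1.51, SE 0.17, adjusted p 2.78e-09), Emilin1, an elastic fibre protein (log2 difference 0.81, SE 0.082, adjusted p 5.22e-10), and Fermt3, an integrin activator of blood cells (log2 difference 1.51, SE 0.15, adjusted p 2.38e-10). Fabp4, a fatty acid carrier of fat, vessel and macrophage, had 10.9 to 66.9 CPM with a median of 23.3 CPM in the high strains and 2.14 to 9.20 CPM with a median of 4.57 CPM in the low strains (log2 difference 2.62, SE 0.20, adjusted p 1.3e-12). Bsg, the chaperone of lactate transporters, ran at 344 to 1142 CPM with a median of 578 CPM in the high strains and 187.8 to 312.1 CPM with a median of 238 CPM in the low strains (log2 difference 1.30, SE 0.11, adjusted p 1.51e-11), and Scd2, a stearoyl desaturase, at 11.4 to 42.8 CPM with a median of 17.4 CPM in the high strains and 4.05 to 11.2 CPM with a median of 7.05 CPM in the low strains (log2 difference 1.40, SE 0.15, adjusted p 1.52e-09). Flna, filamin A (1.25), Kcnj8, a potassium channel of mural cells (1.58), Ccdc80 (1.21), Ier5 (1.02), St6galnac4 (2.65), Shisa2 (2.79), Lrp8 (3.28), Prkar2b (3.56), Loxl2, Alox5ap, Csf2rb2 and Mpo made up the rest. Shisa2, Lrp8, Prkar2b and Mpo reached at most 0.711, 0.508, 0.881 and 0.323 CPM in the low strains. Genes this scarce there can pass the filter on low counts through the high strains alone. F2r was 1 of the 5 not called in the diet study, where it lay at 32.8, 32.5 and 39.6 CPM on 2% iron and 43.9, 37 and 35.4 CPM on 50 ppm (log2 difference -0.15, adjusted p 0.688).

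The 3 with every high strain below every low strain (0.0228%) act in hepatocytes and mitochondria. Amacr, the racemase of branched fatty acids and bile acid intermediates, had 16.6 to 98.2 CPM with a median of 66.9 CPM in the high strains and 105 to 139.9 CPM with a median of 116 CPM in the low strains (log2 difference -0.94, SE 0.12, adjusted p 1.05e-07). Cyp2d26 ran at 111 to 630.4 CPM with a median of 533 CPM in the high strains and 647 to 1132 CPM with a median of 861 CPM in the low strains (log2 difference -0.79, SE 0.13, adjusted p 3.65e-06), and Chchd3, a cristae protein, at 39.6 to 57.9 CPM with a median of 49.8 CPM in the high strains and 58 to 74.1 CPM with a median of 64.7 CPM in the low strains (log2 difference -0.39, SE 0.044, adjusted p 4.28e-09). All 3 fell with Hmox1 over the strains between, with slopes of -0.34, -0.35 and -0.23 (adjusted p 0.000896, 0.000602 and 0.000245). On 2% iron in C57BL/6J mice Amacr was lower (log2 difference -0.75, adjusted p 0.00453), and Cyp2d26 (log2 difference -0.23, adjusted p 0.208) and Chchd3 (log2 difference -0.19, adjusted p 0.152) were not called.

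**Figure D5:**
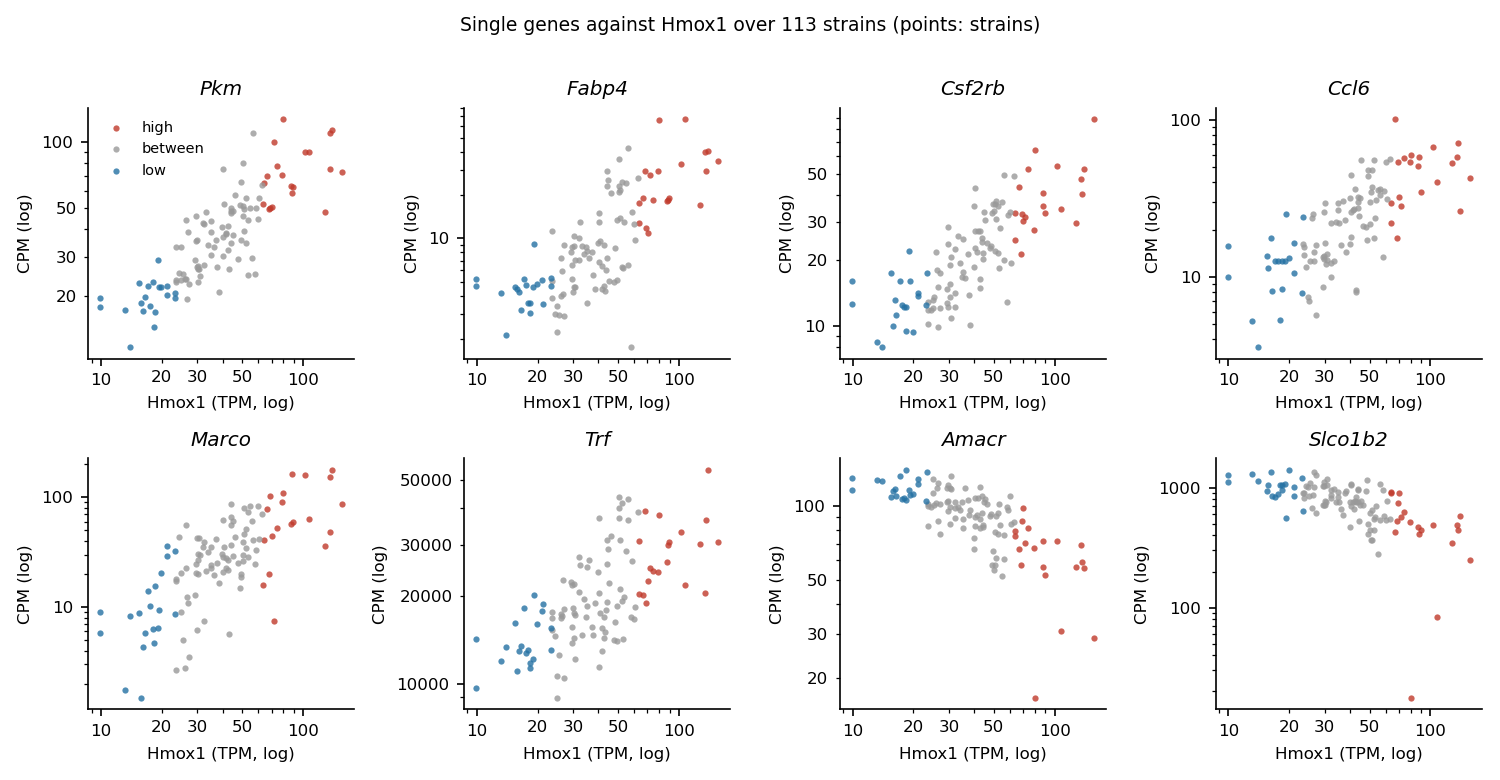
CPM of 8 genes against Hmox1 in TPM over the 20 high, 73 between and 20 low strains (both axes log, each strain a point, coloured by group). Pkm, Fabp4 and Amacr do not overlap between the high and low strains, Csf2rb and Ccl6 rank highest with Hmox1 over the strains between, and Marco, Trf and Slco1b2 overlap in part.

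Of 13 other genes within 500 kb, looked up after earlier results were seen, 3 passed the filter on low counts and none was called. Mcm5, a replication helicase subunit, ran at 1.03 to 21.6 CPM with a median of 3.41 CPM in the high strains and 0.899 to 7.94 CPM with a median of 2.97 CPM in the low strains (log2 difference 0.62, SE 0.29, adjusted p 0.0704). Tom1, an endosomal adaptor, ran at 25.9 to 38.8 CPM with a median of 31.2 CPM in the high strains and 20.1 to 35.8 CPM with a median of 29.7 CPM in the low strains (log2 difference 0.085, SE 0.058, adjusted p 0.221), and Hmgxb4 at 3.98 to 7.59 CPM with a median of 5.76 CPM in the high strains and 3.87 to 8.70 CPM with a median of 6.52 CPM in the low strains (log2 difference -0.090, SE 0.094, adjusted p 0.446). With the macrophage level as a covariate Tom1 was called, at 0.0436, and among strains outside BXD Mcm5 was, at 0.0493.

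Fewer strains were left within families. The 11 high against the 8 low BXD strains gave 3454 called genes, and the 9 high against the 12 low strains outside BXD gave 5129. Macrophage genes were higher in 16 of 20 within BXD and in 15 of 20 outside, and cholesterol synthesis genes lower in 16 of 23 in both. Fatty acid synthesis genes were lower in 0 of 12 within BXD and 8 of 12 outside. A test of the difference itself called 8 of 13134 genes (0.0609%, with 11.4% at an unadjusted p under 0.05), none of them on these lists. With family as a covariate over all 40 strains, 5648 genes were called.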

How the data were processed

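Liver RNA of 130 male mice was sequenced with a stranded mRNA kit, per the labels. The submitters' processing notes name kallisto 0.46 and mm10. The authors deposited expected counts per gene (part not whole, rounded here) and TPM values, in separate tables for panel and diet mice. Table names point to Ensembl 97 for the panel. Symbols came from GENCODE M21 (GRCm38), which matched 35691 of 35711 panel and 34924 of 35274 diet identifiers.

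Groups followed the TPM rank of Hmox1. Genes were tested with edgeR 4.0.16 in R 4.3.3 (quasi-likelihood, TMM, filterByExpr, Benjamini-Hochberg, two-sided), separately for the 40 ranked strains, the 73 between (slope on log2(TPM + 1) of Hmox1) and the 15 diet mice. The script was tested on simulated data. Alternatives were RLE factors, no filter, DESeq2 1.42.0, limma 3.58.1 on log2(TPM + 1) and log2(TPM + 0.1), other group sizes, families and covariates. Replicates are single mice, so p-values measure the spread between strains, which are not independent within a family.

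The strain groups, the 26 gene lists and the tests were chosen with earlier results of these data known. Named were all genes of the heme breakdown, scavenging and regulator lists, the 12 largest rises and falls and the 10 genes most like Hmox1 (mean of at least 1 CPM, no predicted genes or pseudogenes), and up to 4 per other list with the smallest p. Others are said to be chosen after their values were seen. 1 of the rises is not reported here. Totals of 10.2 to 15.4 M counts per library of the high and low groups limit the precision of genes near 1 CPM.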

Additional observations from a re-analysis of the deposited data

Results flagged for a closer look

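For 8 of 13134 genes the high minus low difference differed between the BXD and the other strains in an interaction test, while 1494 had an unadjusted p under 0.05. Sdhd, a subunit of succinate dehydrogenase, differed by -0.056 within BXD and -0.62 outside, a difference of 0.56 (adjusted p 0.00488). Ndufs5, a subunit of complex I, differed by -0.091 within BXD and -0.72 outside, a difference of 0.63 (adjusted p 0.00488), and Casp6, caspase 6, by 0.079 within BXD and -0.70 outside, a difference of 0.78 (adjusted p 0.0448). Pcif1, an RNA methyltransferase, differed by -0.083 within BXD and 0.38 outside, a difference of -0.47 (adjusted p 0.024). Tcf21, a factor of stellate cells, went in opposite directions, at 0.57 within BXD and -0.58 outside, a difference of 1.15 (adjusted p 0.0428). Cyp3a44 differed by 1.27 within BXD and -6.01 outside, a difference of 7.28 (adjusted p 0.024), and it has close paralogs. The pseudogenes Spr-ps1 and Gm6548, whose reads can be shared with their parent genes, differed by -0.63 within BXD and 2.20 outside, a difference of -2.84 (adjusted p 0.00488) and by -0.59 within BXD and 3.49 outside, a difference of -4.08 (adjusted p 0.0428).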

How the results depend on the processing

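The count of genes called between the high and low strains was 6614 and stayed between 4690 and 7461 in all the other fits except that of the BXD strains alone, which called 3454 from 19 libraries. Over the strains between, 2574 fell to 1426 with family as a covariate and was 1747, 1404 rising and 343 falling, with limma on log2(TPM + 1). In the diet study, 2127 fell to 1120 with limma, and leaving out 1 mouse gave 1003 to 1640. The lowest, 1003, came without replicate 1 of the 50 ppm group. Without replicate 3 of the 2% group 1267 were called, and without its replicate 1 1370 were. No paired analysis was possible because the strain groups share no replicate and the labels of the diet mice carry no replicate number. The replicate numbers given above only count the mice within a diet group. Mice with the same number in different groups are not pairs.

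Of 2777 values of 165 named genes over the other fits, 2568 kept direction and call, 163 lost the call, 19 gained it and 27 changed sign. The BXD strains alone lost 45 and the macrophage covariate 22. Called genes that changed sign were Dnah17 (0.072, 0.072 with DESeq2 and without BALB/cByJ), Mafk (-0.028 within BXD), and Hbb-bs and Hbb-bt (-0.24 and -0.17 with the erythroid covariate, which holds them). The others were not called between the 20 high and 20 low strains: Blvrb (-0.0030, -0.12, -0.0090, -0.025 with family, within BXD, with the erythroid covariate and without the 3 far strains), Por (0.094, 0.095, 0.046, 0.22, 0.15, 0.065, 0.18, 0.0050 with limma at both pseudocounts, outside BXD, ranked by CPM, 10 against 10, 30 against 30, and with the macrophage and erythroid covariates), Alb (0.017, 0.017, 0.13, 0.081, 0.071 with limma at both, outside BXD and with the same covariates), Ambp (0.030, 0.030 with limma at both), Hmgxb4 (0.011, 0.018) and Mcm5 (-0.17 with the erythroid covariate). Fits without NZB/BlNJ, BXH2/TyJ and BTBR T<+> tf/J (5668 called), without BALB/cJ (6801) and without BALB/cByJ (6491) were added after the data were seen.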
